A study of Mus musculus with 125 samples.

Results

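In the E9.5 mouse brain library, 80 cell barcodes carried at least 3 of 7 genes that mark connective tissue precursors, Col1a1, Col1a2, Col3a1, Lum, Twist1, Prrx1 and Postn, and carried no UMI (a counted RNA molecule) of Cdh5, Pecam1 or Epcam. They were selected on these measured values from the 9897 barcodes of the library that had at least 200 detected genes and at most 10% mitochondrial UMIs, of which they made up 0.808% (exact 95% binomial interval 0.642 to 1.005%). The library held 17176 barcodes in all and the 5 single-cell libraries together 42340. Cdh5 and Pecam1 are endothelial and Epcam is epithelial, so the rule set those genes to 0 in the 80 cells, and the levels of all 10 genes are given below as a description only. No cell-type labels of the authors were used.

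Mesenchyme is the loose tissue of the embryo, made by the mesoderm layers and, in much of the head, by the neural crest. Its cells secrete fibrillar collagens and small proteoglycans, signal to nearby epithelium and vessels, and give rise to fibroblasts, cartilage, bone, smooth muscle and the pericytes that coat brain vessels. Their transcription factors differ with their place of origin: Twist1 and Prrx1 are used in the head and limbs, Meox1 and Tcf15 in the somites, and Hand1 in the lateral plate and the extraembryonic mesoderm.

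The study followed vessel-lining endothelial cells of several mouse organs through development. One single-cell library was used here for each of E9.5, E12.5, P8 (postnatal day 8) and the adult (2 months of age). At E9.5 and E12.5 the dissected brain was digested with collagenase, while at P8 and in the adult the cortex was dissociated with a neural tissue kit. In all of them the cells passed a magnetic column with anti-CD31 beads, which bind the Pecam1 protein, before 10x 3′ profiling. No strain, genotype, sex or treatment is labelled for these libraries, and whether animals were pooled is not labelled either. The column selects for Pecam1, so the share of these cells in the library does not measure their share of the brain. Open chromatin came from ATAC-seq nuclei of brain, heart and trunk labelled E12, whose protocol text gives collection at E12.5, after tamoxifen at E10.5 and a check for green fluorescent protein in the vessels. Those nuclei were either the endothelial fraction or the fraction labelled "Input". With 1 library per age there was no replicate, so no test was made between cell classes or ages, and all intervals below are exact Poisson or Clopper-Pearson 95% intervals that cover counting error only.

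The 80 cells held 553213 UMIs, with a median of 5732 per cell (range 1148 to 33152), 2116 genes and 4.83% mitochondrial UMIs. The 6905 endothelial cells of the library (at least 2 of Cdh5, Pecam1, Kdr, Tie1, Emcn and Egfl7, no Epcam, under 3 of the 7 markers) had a median of 6179 UMIs. The 344 epithelial cells (Epcam with at least 2 of Krt8, Krt18, Cdh1, Cldn6, Cldn7 and Krt19, no Cdh5 or Pecam1, under 3 of the 7 markers) had a median of 6717. The lower quartiles were 4732, 3535 and 4199 UMIs in the same order, and 850 endothelial cells but only 2 of the 80 lay under 2000 UMIs. The E9.5 library had 7279 barcodes above the mitochondrial limit, with a median of 1648 UMIs. It shared 3 barcodes with the E12.5 library, 1 with E16.5, 29 with P8 and 31 with the adult library, and none of these was among the 80. Globin RNA was present throughout: the embryonic globin Hbb-y had UMIs in 80 of 80 cells, and the 10 erythroid genes gave a median of 12 UMIs per cell there against 13 in endothelial and 13 in epithelial cells. Whether this was free RNA was not tested. The doublet caller Scrublet marked 2 of 9897 barcodes (0.0202%), too few to have worked, so doublets were not removed by a caller. The rule left out 64 barcodes that met the marker limit but held Cdh5, Pecam1 or Epcam, and they had a median of 8178 UMIs. Xist and a Y-linked gene were found together in 1 of the 80 cells.

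The number of rule markers per barcode is given here as a description of where the limit of 3 lies. Among barcodes without Cdh5, Pecam1 and Epcam, 3043 had none of the 7 genes, 439 had 1, 80 had 2, 23 had 3, 14 had 4, 34 had 5 and 9 had 6. None had all 7. The counts thus fell steadily to 4 markers and were higher again at 5. Just inside the limit, the 23 cells with 3 markers most often carried Col3a1 (17 cells), Col1a2 (15) and Twist1 (15), and 10 of them held Krt8. Just outside, the 80 barcodes with 2 markers carried Twist1 in 47 and Col3a1 in 44, and 18 held Krt8. A further 23 barcodes met everything but the mitochondrial limit, with a median of 1792 UMIs.

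**Figure D1:**
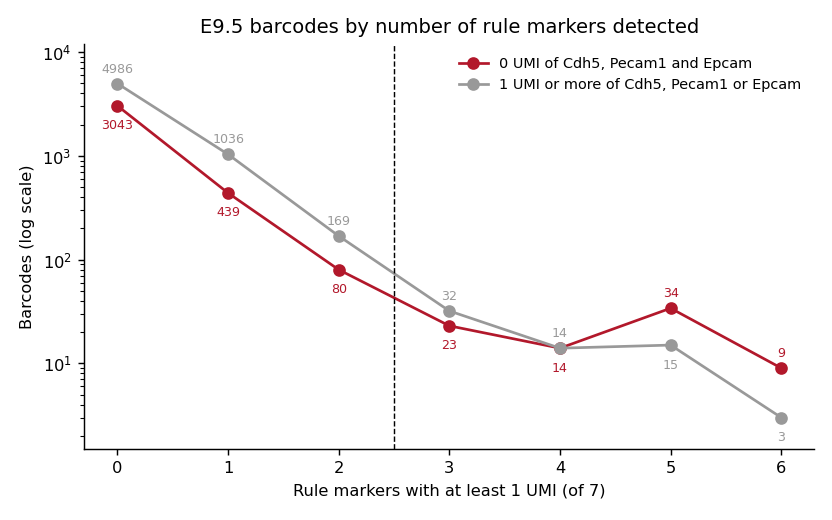
Number of passing E9.5 barcodes (y axis, log scale) against the number of the 7 rule markers detected (x axis), drawn separately for barcodes with no UMI of Cdh5, Pecam1 and Epcam (red) and with at least 1 (grey). The dashed line is the limit of 3 markers, and the red count rises from 14 barcodes at 4 markers to 34 at 5.

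The 7 markers were not detected evenly. Col3a1, a fibrillar collagen, had UMIs in 71 of 80 cells and Col1a2, a chain of type I collagen, in 69. The partner chain Col1a1 was found in 56, the keratan sulfate proteoglycan Lum (lumican) in 47, the matrix protein Postn (periostin) in 47, and the transcription factors Twist1 and Prrx1 in 39 and 20. Lum and Postn occurred together in 37 cells, while Lum and Twist1 occurred together in only 14, with 33 cells holding Lum alone and 25 Twist1 alone. Most cells with Lum thus had no Twist1 UMI, and most cells with Twist1 had no Lum UMI.

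Genes outside the rule that stood highest in the 80 cells, against all 9817 other passing barcodes, are given next. These genes share the cells with the rule and are a description of what the rule collected. Krt8, a keratin of simple epithelia, had UMIs in 58 of 80 cells, with 0, 7.5 and 68 UMIs as the lowest, median and highest cell. Its level in the summed counts was 1529 CPM (UMIs scaled to a common total in each class), against 67.2 CPM in the other barcodes, a ratio of 22.8 (21.1 to 24.5). Acta2, the smooth muscle actin, had a lowest, median and highest cell of 0, 5.5 and 76 UMIs, was found in 55 cells and stood at 1356 CPM against 61.4. Both genes were therefore carried by most of the cells, over a wide range.

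Hand1, a transcription factor of lateral plate and extraembryonic mesoderm, had UMIs in 43 cells, with 0, 1 and 20 UMIs as the lowest, median and highest cell. It stood at 378 CPM against 3.99 CPM, a ratio of 94.7 (78.3 to 114). Across the whole library 162 passing barcodes held Hand1, and 43 of them were in the rule. The imprinted membrane protein Dlk1 was found in 58 cells, from 0 through a median of 2.5 to 18 UMIs, at 544 CPM against 22.3. The proteoglycan Dcn (decorin) was found in 30 cells at 197 CPM against 1.64, a ratio of 120 (90.6 to 159). Hand1, Dlk1 and Dcn thus marked overlapping but unequal portions of the 80 cells.

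Of the other genes with the highest ratios, several are secreted. Prss35, a serine protease-like protein, had 30 UMIs in 16 cells, a ratio of 367 (170 to 878) on a denominator of 9 UMIs. The ligand Wnt2 was found in 23 cells with a ratio of 62.1 and the matrix protein Smoc2 in 26 with a ratio of 60.4. Wisp1, a matricellular protein, was found in 33 cells with a ratio of 75.4. Angptl6, an angiopoietin-like secreted factor, was found in 20 cells with a ratio of 26.4. The homeobox transcription factor Pitx1 was found in 17 cells with a ratio of 22.7. Upk3b, a uroplakin that marks mesothelium, was found in 21 cells with a ratio of 86.7 (59.1 to 127), the small heat shock protein Cryab in 42 with a ratio of 30.3, and the ephrin Efnb1 in 37 with a ratio of 25.8. Tdo2, which breaks down tryptophan, came from 8 cells, and its ratio over endothelial cells was 114 (69.1 to 190) with all cells and 43.5 (20.3 to 87.4) when the 5 cells of most UMIs were left out, a set chosen after the data were seen.

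Among the 10 genes of lowest ratio, Arhgap18, Hhex and Tyrobp each had 1 UMI in the 80 cells. Hhex, an endothelial and liver transcription factor, stood at 58.4 CPM in the endothelial cells. Tyrobp, an adaptor protein of myeloid cells, stood at 36.0 CPM in them. Of the 10 macrophage genes 7 were at 0 in the 80 cells, which together had 9.04 CPM of that list.

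The cells fell into 3 clusters, which are named here by a leading or defining gene and given no type. The clusters were made from the same counts as the values that follow, so these are descriptions. The Meox1 cluster had 31 cells, 20 of them with 3 rule markers and 9 with 4. The Postn cluster had 19 cells, 16 of them with 5 markers. The Angptl6 cluster had 30 cells, 17 of them with 5. Median depths were 5366, 5173 and 6130 UMIs.

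In the Meox1 cluster the somite genes were found in a minority of cells. Meox1, a somite transcription factor, was found in 12 of its 31 cells and in 1 of the other 49. Tcf15, which acts with it in the somite, was found in 10 of 31 and 1 of 49. The retinoic acid binding protein Crabp2 was found in 11 of 31 and 2 of 49, and Foxd1, a factor of head mesenchyme and kidney stroma, in 7 of 31 and 2 of 49. Pf4, a platelet chemokine that also leads by level, came from 4 of 31 cells and was in 8 of 49 others. Twist1 was detected in 25 of the 31 cells, at 365 CPM, against 2 of 19 at 19.1 CPM in the Postn cluster and 12 of 30 at 84.3 CPM in the Angptl6 cluster. Col1a1 stood at 91.1 CPM there against 1957 and 517 CPM, Col3a1 at 199 against 1146 and 740 CPM and Col1a2 at 160 against 1060 and 524 CPM, and Postn was in 3 of 31 cells. Other matrix genes did not share that order: Col26a1 stood at 96.8 against 0 and 25.6 CPM, and Fbn2, a fibrillin, at 131 against 28.6 and 103 CPM.

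The Postn cluster led with Dkk2, a Wnt inhibitor (10 of 19 cells against 3 of 61), Serpinb6b, Prss35 (10 of 19 against 6 of 61), the semaphorin Sema3e (7 of 19 against 1 of 61) and the cell adhesion protein Flrt3. The Angptl6 cluster led with Angptl6 (19 of 30 against 1 of 50), the fatty acid transport protein Slc27a3 (22 of 30 against 3 of 50), Tdo2, the imprinted Phlda2 and the X-linked homeobox gene Rhox5 (13 of 30 against 3 of 50). Both clusters carried Col1a1, Lum and Postn in most cells. They differed in Dcn, found in 16 of 19 and 13 of 30 cells, and in Angptl6, found in 0 of 19 cells of the Postn cluster.

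The keratins followed the clusters. Krt8 and Krt18 together reached 5 UMIs in 50 of the 80 cells: 4 of 31 in the Meox1 cluster, 18 of 19 in the Postn cluster and 28 of 30 in the Angptl6 cluster. Their median was 0 UMIs (range 0 to 13) in the Meox1 cluster, 17 (2 to 59) in the Postn cluster and 21 (0 to 109) in the Angptl6 cluster. The share of 50 in 80 depends on the marker limit, since a limit of 2 markers gave 60 of 160 cells. The ranges overlapped, and 21 of the 31 Meox1-cluster cells held no Krt8. Krt8 stood at 137, 2330 and 2118 CPM in the 3 clusters. Acta2 stood at 102, 1929 and 1942 CPM in the same order. Hand1 stood at 39.9, 630 and 498 CPM. Keratins and Hand1 were in the same cells: 39 cells had Hand1 and at least 5 keratin UMIs, 4 had Hand1 alone, 11 keratin alone and 26 neither. Twist1 went the other way, with 14 cells holding both it and keratin, 25 Twist1 alone, 36 keratin alone and 5 neither. Twist1 is a rule marker, so this split describes cells chosen partly by it.

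**Figure D2:**
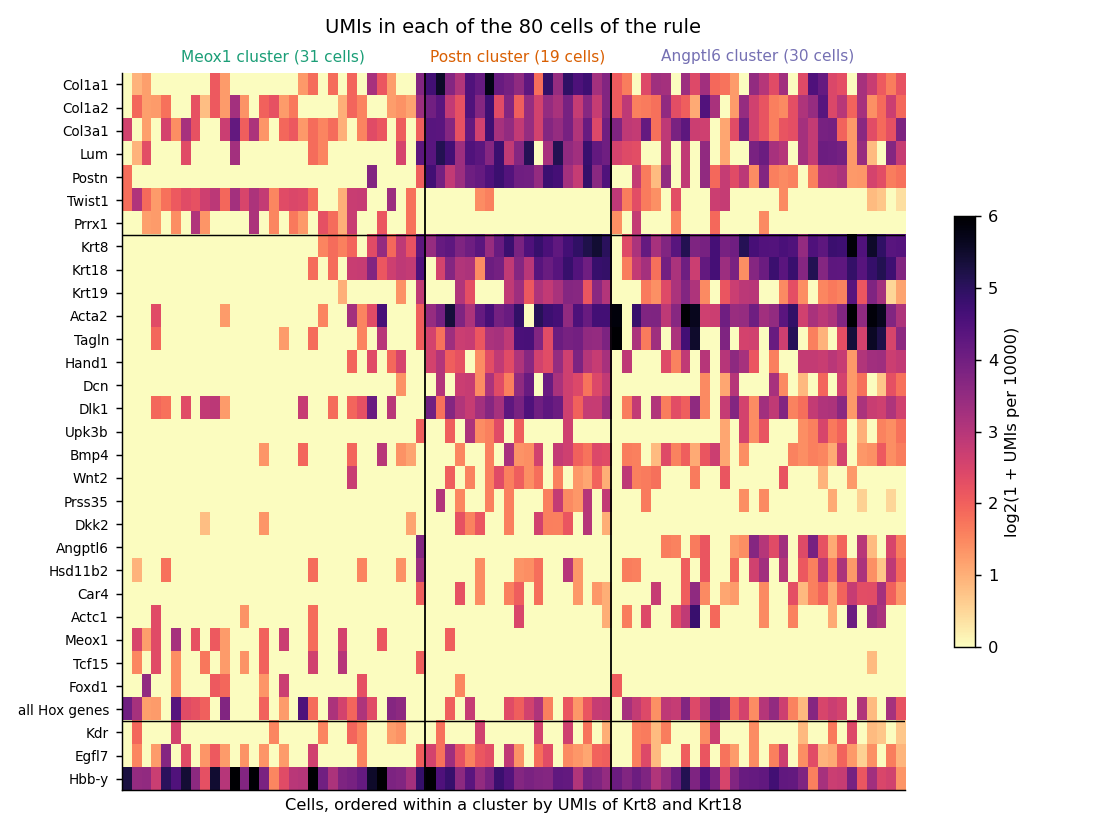
UMIs of 30 genes and of all Hox genes together (rows) in each of the 80 cells (columns), as log2 of 1 plus UMIs per 10000, with the cells grouped by cluster and ordered within a cluster by keratin UMIs. The 19 cells of the Postn cluster and most of the 30 of the Angptl6 cluster are dark for Krt8, Krt18, Acta2 and the matrix genes, while Twist1 and Meox1 are seen mainly among the 31 cells at the left and Hbb-y in all 80.

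Genes that the rule did not use were set against the label "mesenchymal", and they matched it in part only. The 80 cells were chosen partly by fibrillar collagens, and both comparison classes had under 3 of the 7 markers. Genes expressed together with the markers are thus higher partly by construction. Among genes with at least 100 UMIs over the 80 cells and the endothelial cells together (the genes called tested below, though no p-value was made), 293 of 10510 (2.79%) were at least 4-fold higher in the 80 cells, and 370 (3.52%) were at least 4-fold lower. The median difference over the 10510 genes was 0.12 on the log2 scale. Without the 10 genes of the rule, 4 of 5 further fibrillar and associated collagens passed as higher (median log2 difference 2.31), including Col5a1 at 77.7 CPM against 3.93. Of 12 collagen-processing genes 3 were higher (median 0.95): P4ha2, which hydroxylates procollagen, at 181 against 9.71 CPM, Pcolce, which aids propeptide removal, at 85.0 against 5.60, and Plod2, a lysyl hydroxylase of procollagen, at 137 against 16.4. Of 19 proteoglycan and other matrix genes 4 were higher (median 0.88), and of 18 mesenchymal transcription factors 7 were higher and 1 lower (median 1.48). Snai2, which represses epithelial adhesion genes, stood at 72.3 CPM against 3.13, while Snai1, Zeb1 and Zeb2 of the same list had ratios of 0.90, 0.73 and 0.72. Against the epithelial cells, 1 of 1 further collagen, 3 of 7 collagen-processing genes, 1 of 8 matrix genes and none of 9 transcription factors (median -0.06) was higher, beside 1.04% of all genes tested. None of the 11 endothelial genes apart from Cdh5 and Pecam1 was higher and 10 were lower (median -2.85), but the endothelial class was itself chosen partly by Kdr, Tie1, Emcn and Egfl7, so this is no evidence on the label. Kdr, the VEGF receptor, stood at 75.9 CPM in the 80 cells against 385 CPM in endothelial cells, and Egfl7, a vessel-secreted protein, at 150 against 764. These endothelial genes gave a median of 3 UMIs per cell in the 80 cells, 27 in endothelial and 2 in epithelial cells.

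The simple-epithelial keratins were also abundant in the 80 cells, while several other epithelial genes had no UMI. Keratin did not fall as rule markers rose. Krt8 was in 41 of the 43 cells with 5 or 6 markers, at 2103 CPM, and in 17 of the 37 with 3 or 4, at 663 CPM. Krt8 was 113-fold higher than in endothelial cells and 2.13-fold (1.96 to 2.31) higher than in the epithelial cells, a class that was itself chosen partly by Krt8. Krt18 stood at 1170 CPM in the 80 cells, 20.0 in endothelial and 843 in epithelial cells, and Krt19 at 300, 3.99 and 233. Yet Cdh1, which encodes E-cadherin, and the claudins Cldn3, Cldn4 and Cldn6 and the factor Grhl2 were at 0 UMIs in all 80 cells, and Cldn7, Esrp1 and Spint2 had 2, 1 and 2 UMIs. Of the 11 epithelial genes other than Epcam, 5 were at 0, and of 8 tested against the epithelial class none was higher and 5 were lower (median -3.30, beside 1.04% higher and 1.81% lower over all genes). Against endothelial cells 3 of 4 tested were higher (median 6.05, beside 2.79% higher over all genes). The rule itself let in no cell with Epcam, and the epithelial class was chosen by Epcam and partly by Cdh1, Cldn6, Cldn7 and the keratins, so the lower values against that class are partly built in. After thinning to 2000 UMIs, 74.4% of the 78 cells kept had a UMI of Krt8 or Krt18, against 5.96% of endothelial and 88.3% of epithelial cells, and 44.9% had Hand1, against 0.297% and 1.81%. Both shares were thus far above the level in endothelial cells thinned to the same depth. The 50 cells with at least 5 keratin UMIs are therefore called keratin-bearing here and given no type.

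**Figure D3:**
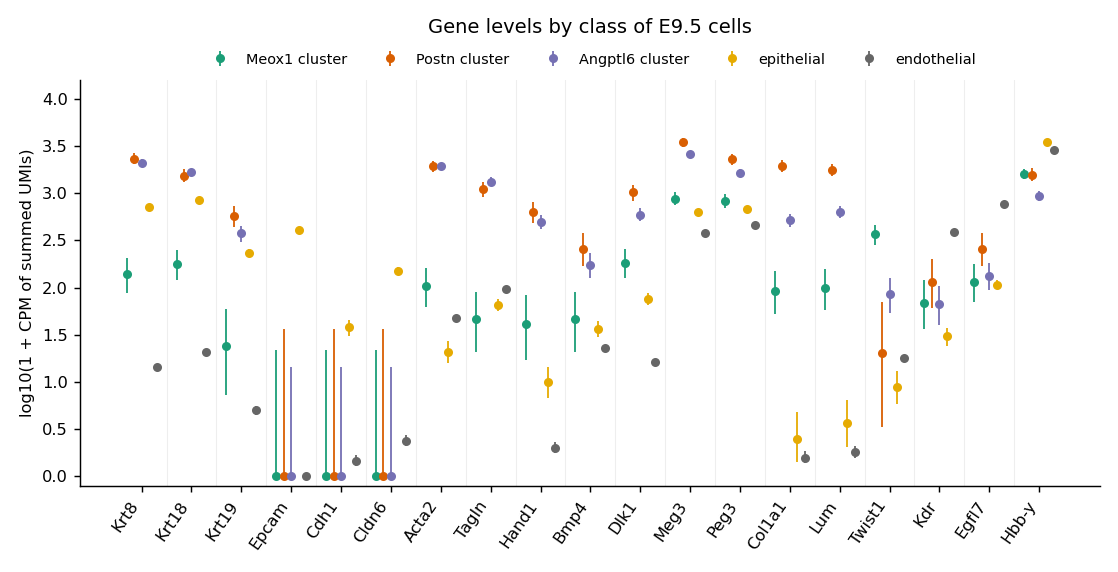
Level of 19 genes, as log10 of 1 plus CPM of summed UMIs (y axis), in the 3 clusters of the 80 cells, the 344 epithelial and the 6905 endothelial cells of E9.5, with bars for the 95% Poisson interval. Krt8 and Krt18 in the Postn and Angptl6 clusters lie above the epithelial cells, while Epcam (0 by the rule), Cdh1 and Cldn6 lie at 0 in all 3 clusters.

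Mesoderm lists were compared by cluster. Over all genes tested against endothelial cells, 2.79% were at least 4-fold higher and 3.52% at least 4-fold lower. Of 8 lateral plate and splanchnic genes tested against endothelial cells 5 were higher and none lower (median 2.46), and their summed level was 211, 1308 and 1059 CPM in the Meox1, Postn and Angptl6 clusters. Besides Hand1 these were Bmp4, a ligand that patterns ventral mesoderm, at 148 against 22.1 CPM, Foxf1, a factor of splanchnic mesoderm, at 41.6 against 2.53, the heart factor Tbx20 at 45.2 against 5.51, and Gata6 at 77.7 against 17.2. The paraxial and somite list summed to 450, 28.6 and 11.0 CPM in the same order. Of its 3 genes tested 1 was higher and 1 lower. The mesothelium list summed to 28.5, 802 and 531 CPM in the clusters and 254 in epithelial cells, and most of each cluster's sum was Krt19 (22.8, 573 and 374 CPM), already described as a keratin. Of 11 cardiomyocyte genes 2 were higher and 1 lower. All 4 chondrogenic genes tested against endothelial cells were higher (median 3.36), and 6 of the 7 osteogenic genes were at 0. The chondrogenic list summed to 204.3 CPM in the 80 cells and 129.3 in epithelial cells. Its 1 gene tested against epithelial cells had a log2 difference of -1.378 and was not called. Mural genes, of smooth muscle and pericytes, were higher for 3 of 6 tested, and 4 of the 12 were at 0. Most of the list's 2330 CPM came from Acta2 and Tagln, and the pericyte gene Rgs5 had 6 UMIs. Tagln, an actin-binding protein of smooth muscle, stood at 878 CPM against 96.0 in endothelial and 64.3 in epithelial cells. The receptor Pdgfrb, which pericytes need, stood at 39.8 CPM in 17 cells and Pdgfra, its relative on mesenchymal progenitors, at 21.7 CPM in 10 cells. The tissue label is brain, and of 14 neural genes 8 were at 0 in the 80 cells. The neural list summed to 92.2 CPM there, 48.8 in endothelial and 123 in epithelial cells, and none of the 69 passing barcodes with at least 3 neural genes was among the 80. Of the 9 decidua and trophoblast genes 6 were at 0, and the 2 of 3 tested that were higher than in endothelial cells were Hand1 and Cryab. Of the cranial neural crest list 1 of 2 genes tested was higher and 5 of 14 were at 0 UMIs.

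Against the epithelial cells, 42 of 4032 genes tested (1.04%) were at least 4-fold higher and 73 (1.81%) at least 4-fold lower, with a median log2 difference of -0.02. Of the 8 yolk sac endoderm genes tested 7 were lower (median -4.09). Afp, a fetal serum protein, had 2 UMIs and Ttr, a thyroxine carrier, 3 UMIs in the 80 cells, while the epithelial cells stood at 442 and 686 CPM. The whole list summed to 327 CPM in the 80 cells and 2900 in the epithelial cells, but its median was 1 UMI per cell in both classes (197 and 204 CPM), so a minority of epithelial cells held most of that sum.

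Signalling genes were tested as ligands, receptors and targets. Over all genes tested against endothelial cells, 2.79% were at least 4-fold higher and 3.52% at least 4-fold lower. Of 9 Wnt genes 6 were higher than in endothelial cells (median 2.28). Wnt5a, a non-canonical ligand, stood at 59.7 CPM against 2.28, and Sfrp1, a secreted Wnt antagonist, at 141 against 4.82. Of 14 BMP and TGF-beta genes 3 were higher (median 0.13), among them Bmp2 at 65.1 against 3.70 CPM. Of 5 hedgehog genes 3 were higher (median 2.05). Ptch1, the receptor and a target of the pathway, stood at 101 against 12.9 CPM, and the co-receptor Gas1 at 97.6 against 4.98. None of 7 FGF genes was higher and 2 were lower. Of 14 vessel-directed ligands 4 were higher and 1 lower (median 0.59). Slit2, a guidance ligand for axons and vessels, stood at 59.7 CPM against 8.34, and its relative Slit3 at 39.8 against 3.37. The chemokine Cxcl12, also of this list, stood at 68.7 CPM against 5.12 in endothelial and 68.4 in epithelial cells. Set against the epithelial cells instead, none of 5 Wnt, 3 hedgehog or 4 vessel-directed genes tested was at least 4-fold higher. Among them 1 Wnt and 1 vessel-directed gene were lower. Of 7 BMP and TGF-beta genes 1 was higher and 1 lower. Over all genes in that comparison 1.04% were higher and 1.81% lower.

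Genes of the insulin-like growth factor (IGF) and imprinted growth list were among the most abundant. The 16 genes of that list summed to 9644 CPM in the 80 cells, 5192 in endothelial and 4469 in epithelial cells. Of these 3 were higher and 1 lower against endothelial cells (median 0.87) and 3 of 15 were higher against epithelial cells (median 1.16). Over all genes tested, 2.79% were higher and 3.52% lower against endothelial cells, and 1.04% higher and 1.81% lower against epithelial cells. Meg3, a maternally expressed noncoding RNA, stood at 2218 CPM against 374 in endothelial and 628 in epithelial cells. Igfbp2, which binds insulin-like growth factors, stood at 407 against 43.8 and 486. Peg3, a paternally expressed zinc finger gene, stood at 1506 against 466 and 672, and H19 at 1468 against 987 and 729. The list's sum was 5383 CPM in the Meox1 cluster, 14180 in the Postn cluster and 10640 in the Angptl6 cluster.

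Hox genes record the position of a cell along the body axis, with low-numbered groups used toward the hindbrain and high-numbered ones toward the tail; forebrain and midbrain tissue lacks them. After thinning each cell to 2000 UMIs, which kept 78 of the 80 cells, 48.7% (37.2 to 60.3) of the selected cells had a Hox UMI, against 23.6% (22.6 to 24.7) of 6055 endothelial and 38.0% (32.7 to 43.4) of 332 epithelial cells. Without thinning the shares were 73.8%, 45.0% and 56.7%. For groups 5 to 13 the thinned shares were 37.2%, 15.8% and 26.8%. Group 8 gave the most UMIs in the 80 cells, 79 UMIs or 143 CPM, against 25.1 CPM in endothelial and 68.4 in epithelial cells. Hoxc8 made up 60 of those 79 UMIs, from 22 cells. Groups 11 and 12 had no UMI, and group 13 had 3 UMIs. Of 20 Hox genes tested against endothelial cells 2 were higher, beside 2.79% of all genes tested. Against epithelial cells none of 4 was higher and 1 was lower (median -1.06), beside 1.04% and 1.81% of all genes. The whole list summed to 465 CPM in the 80 cells and 431.5 in epithelial cells. The order differed by group: group 4 stood at 88.6 CPM in the 80 cells and 55.25 in epithelial cells, and group 9 at 54.2 and 84.6. Within the 80 cells the thinned share was 55.2% (35.7 to 73.6) in the Meox1 cluster, 31.6% (12.6 to 56.6) in the Postn cluster and 56.7% (37.4 to 74.5) in the Angptl6 cluster, with overlapping intervals. For a library labelled brain, Hox groups 5 to 9 are those of the spinal cord and trunk levels.

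**Figure D4:**
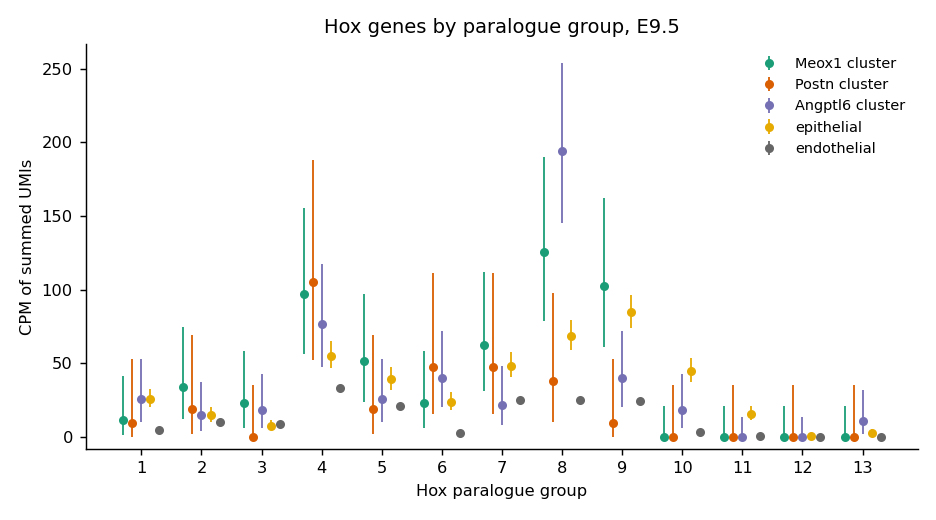
CPM of summed UMIs (y axis) of each Hox paralogue group (x axis) in the 3 clusters, the epithelial and the endothelial cells of E9.5, with 95% Poisson intervals. Group 8 is the peak in the Angptl6 cluster at 194 CPM, and the Postn cluster has its highest value in group 4, at 105 CPM.

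The shares of cells with cycling genes had overlapping intervals. After thinning, 74.4% (63.2 to 83.6) had a UMI of Mki67, Top2a, Cdk1, Ccnb1 or Ube2c, which peak in G2 and mitosis, against 78.5% (77.5 to 79.6) of endothelial and 79.2% (74.5 to 83.5) of epithelial cells. Of the 12 G2M and 12 S phase genes none was at least 4-fold higher or lower against either class. The glycolysis list, with 9548, 9293 and 10680 CPM in the selected, endothelial and epithelial cells, also had no gene higher and 1 lower.

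Applied to the later libraries, the same rule gave 145 of 8248 passing barcodes at E12.5 (1.76%, 1.49 to 2.07), 70 of 5277 at P8 (1.33%, 1.04 to 1.67) and 15 of 3671 in the adult (0.409%, 0.229 to 0.673). Median UMIs of passing barcodes were 5160 at E9.5, 9144 at E12.5, 7869 at P8 and 4669 in the adult. The rule counts detected genes and these shares were not thinned, so differences in depth enter them. The brain label and collagenase were shared by E9.5 and E12.5. Between them age cannot be told apart from the library, the tissue actually taken or the mix of cells. Hox group 8, for example, stood at 142.8 CPM in the E9.5 cells and at 0 in those of E12.5. P8 and the adult differ also in the tissue dissected and the dissociation. Another 146, 174 and 37 barcodes met the marker limit but held Cdh5, Pecam1 or Epcam. Col1a2 stood at 510 CPM (452 to 573) at E9.5, 490 (447 to 536) at E12.5, 640 (569 to 719) at P8 and 499 (355 to 682) in the adult, and it helped choose the cells at each age. Other rule genes differed between the libraries. Col1a1 stood at 654 CPM (589 to 725) at E9.5 and at 259, 197 and 153 CPM later, and Postn at 502, 90.8, 223 and 12.8 CPM. Prrx1 was detected in 25.0%, 58.6%, 77.1% and 60.0% of the cells.

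Among genes that the rule did not use, Krt8 stood at 1529 CPM (1428 to 1636) at E9.5, 3.09 (0.638 to 9.04) at E12.5, 8.83 (2.41 to 22.6) at P8 and at 0 in the adult. Hand1 stood at 378 CPM at E9.5 and had no UMI at the 3 later ages, where the upper limits are 3.80, 8.15 and 47.2 CPM. Upk3b likewise had no UMI after E9.5. These intervals do not overlap between E9.5 and E12.5, or between E9.5 and P8. Hox genes summed to 465 CPM at E9.5, 87.7 at E12.5 and 0 at P8 and in the adult.

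Some genes were lowest at E9.5. Pdgfrb, the pericyte receptor, stood at 39.8 CPM (24.9 to 60.2) at E9.5, 221 (192 to 252) at E12.5, 1117 (1022 to 1219) at P8 and 716 (541 to 930) in the adult. Bgn, a small proteoglycan, stood at 30.7, 1005, 579 and 524 CPM. Other matrix genes did not follow: Vcan, a large proteoglycan, stood at 123, 86.6, 24.3 and 0 CPM. Col2a1, the cartilage collagen, was seen in 5 cells at 25.3 CPM at E9.5 and in 46 cells at 584 CPM at E12.5, and in no cell at P8 or in the adult. H19 stood at 1468 and 1391 CPM at E9.5 and E12.5, then at 2.21 at P8 and at 0 in the adult, while Peg3 was already lower at E12.5 (1506, 210, 30.9 and 0 CPM). The mural list summed to 2330, 2521, 13550 and 21580 CPM at E9.5, E12.5, P8 and in the adult. The pericyte gene Rgs5 stood at 10.85, 674.5, 7529 and 4592 CPM, and was in 3 cells at E9.5 and 63 at P8. The rule may thus have collected different kinds of cell at each age, which was not tested. With 1 library per age, how much of these differences would vary between libraries of 1 age was not measured.

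**Figure D5:**
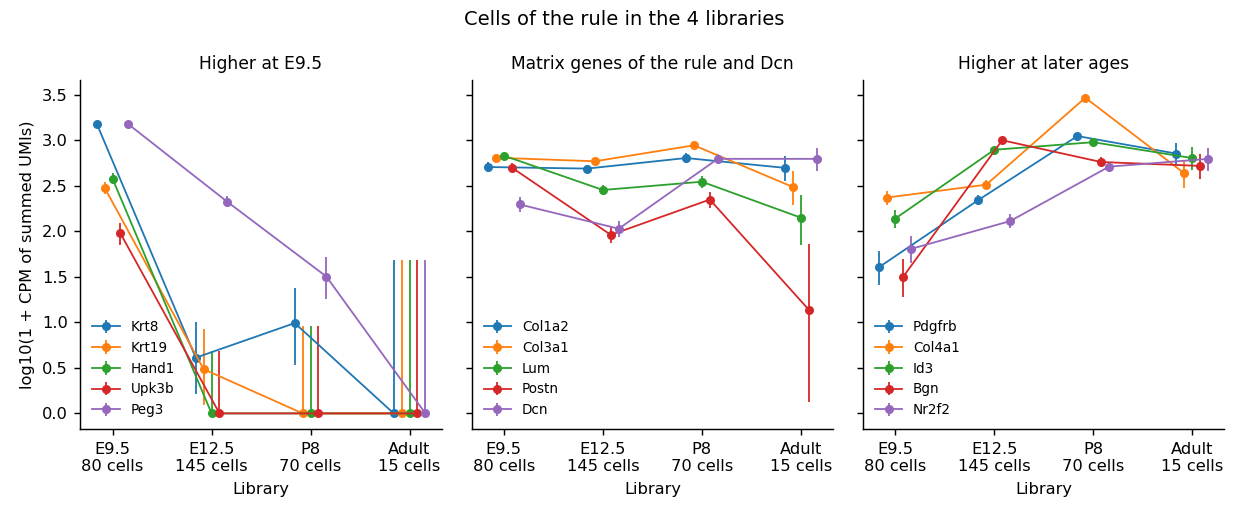
Levels of 15 genes in the cells found by the same rule at E9.5 (80 cells), E12.5 (145), P8 (70) and in the adult (15), as log10 of 1 plus CPM of summed UMIs, with 95% Poisson intervals. Krt8, Krt19, Hand1 and Upk3b are highest at E9.5, Col1a2 stays between 490 and 640 CPM and Pdgfrb and Bgn are higher at later ages.

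Open chromatin was read at E12. The peaks come from another age, preparation and mix of cells than the 80 E9.5 cells, so a peak shows only that the region was open in some nuclei of that fraction. The promoters of 3 genes on which the description above turns are shown because their peaks differ between the fractions, or because the gene defines the keratin-bearing cells. They run from 250 bases before the annotated start to 30 bases into the transcript, in RefSeq annotation of GRCm38.p6, with the transcribed bases in capitals. Acta2 lies on the minus strand at chr19:34255344-34255623, Upk3b on the plus strand at chr5:136038246-136038525 and Krt8 on the minus strand at chr15:102004313-102004592.
Acta2: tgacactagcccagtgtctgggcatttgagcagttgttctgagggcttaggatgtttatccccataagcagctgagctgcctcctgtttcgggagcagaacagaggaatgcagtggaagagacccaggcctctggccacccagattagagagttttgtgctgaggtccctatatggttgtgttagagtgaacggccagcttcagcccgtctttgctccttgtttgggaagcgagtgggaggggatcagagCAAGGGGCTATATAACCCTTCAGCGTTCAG
Upk3b: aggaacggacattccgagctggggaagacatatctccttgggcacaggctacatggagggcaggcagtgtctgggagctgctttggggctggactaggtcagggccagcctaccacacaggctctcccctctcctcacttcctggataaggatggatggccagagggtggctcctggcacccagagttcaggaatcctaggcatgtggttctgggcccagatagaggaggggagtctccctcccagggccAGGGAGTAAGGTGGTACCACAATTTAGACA
Krt8: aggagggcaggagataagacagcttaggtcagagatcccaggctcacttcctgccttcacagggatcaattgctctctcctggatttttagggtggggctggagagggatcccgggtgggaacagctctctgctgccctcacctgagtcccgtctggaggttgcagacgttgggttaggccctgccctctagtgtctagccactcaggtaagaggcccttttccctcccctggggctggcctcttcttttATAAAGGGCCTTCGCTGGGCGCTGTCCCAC

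Starts were in the reference table for 12 of the 20 genes of highest ratio and for 5 of the 7 rule genes. Of the 12, a peak lay within 1 kb of the start in 10 in the brain input, 12 in the heart input and 10 in the trunk input, and in 6 to 10 in the 11 endothelial libraries. The same measure over 27025 genes gave 43.6 to 60.6% of genes with a peak. The heart endothelial library with the lowest share had 39096 peaks from 10139069 tags, and without it the other 10 endothelial libraries ranged from 8 to 10 of 12. With peaks limited to a -log10 q of at least 5, that library had 1 of 12 and the trunk endothelial replicates 1 and 2 had 5. The shares over all genes in these libraries were then 31.1%, 45.85% and 42.8%. The genes with a peak in all 3 inputs fell from 10 to 7. Within 5 kb of the start, heart endothelial replicates 1, 2 and 4 had a peak at all 12 genes, beside 69.2 to 71.5% of all genes. The other endothelial libraries had 8 to 11 of 12 within 5 kb. Each gene's peaks were mostly shared: Wnt2, Steap1, Efnb1, Pcdh18 and Me1 had one in all 14 libraries.

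Acta2, Tdo2 and Upk3b had peaks within 1 kb of the start in 5, 2 and 1 of the 14 libraries. Tdo2 had one in the heart input and in heart endothelial replicate 4. At Acta2, in the brain, heart and trunk inputs a peak spanned its start, with fold enrichments of 3.42, 4.91 and 4.17 and -log10 q of 4.80, 27.9 and 9.58 in the authors' lists. Among the 11 endothelial libraries only trunk replicates 3 and 4 had one, at 3.06 and 2.61-fold. The Upk3b start was covered by a peak in the heart input alone (chr5:136038212-136038857, fold enrichment 4.44, -log10 q 9.37). Krt8 had a peak within 1 kb in 12 of 14 libraries. In the brain and trunk inputs it began 823 and 903 bp into the gene, and in the heart input a peak also covered the start shown. Each organ had 1 input library, so no test was made of input against endothelial nuclei.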

How the data were processed

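The deposited single-cell files hold UMI counts per gene and cell barcode, made by the authors with Cell Ranger (4.0.0 per the file headers) on mm10, per the submitters' processing notes. The E12 ATAC peaks were called with MACS2 separately for each library without a control, per the file headers, and each peak carries the authors' fold enrichment and -log10 q value. Counts were read for 27998 genes. Barcodes needed 200 genes and at most 10% mitochondrial UMIs, counted over 13 genes. UMIs were summed over the cells of a class and scaled to CPM. A gene was tested with at least 100 UMIs over both classes and called at a 4-fold ratio, with a count of 0 taken as 3 UMIs. For the median log2 differences every count below 3 UMIs was taken as 3. A median that rests on such genes is a bound on the difference. No p-value was computed, because each age had 1 library. Clusters came from scanpy 1.11.5 (2000 variable genes, 10 components, 10 neighbours, Leiden resolution 0.5). Named genes are the 20 highest and 10 lowest by ratio over all other barcodes among genes at 50 CPM or more, the 5 leading genes of each cluster, and members of pathway and cell-type lists; not all of them are reported here. The rule for the cells, the gene lists and the comparisons were chosen with earlier results of these data known. The E16.5 library was not analysed here beyond its barcodes. Promoters are from RefSeq.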

Additional observations from a re-analysis of the deposited data

Results flagged for a closer look

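In heart endothelial replicate 3 of the E12 ATAC libraries, 43.59% of the 27025 genes had a peak within 1 kb of their start, while the other 3 heart endothelial libraries had 56.9 to 58.0%. The gap to the nearest of them was large for the range of 4 libraries, past a limit that chance alone passes in about 1 of 20 groups. That library also had the fewest tags, 10139069, and 6 of the 12 named genes with a peak. Without it the range over the endothelial libraries was 8 to 10 of 12.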

How the results depend on the processing

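The number of selected cells rests on the limits of the rule. It was 160 with at least 2 markers, 57 with at least 4, 42 with at most 5% mitochondrial UMIs and 144 when Cdh5, Pecam1 and Epcam were not used, and 71 to 80 under the other changes. The corresponding counts for at least 2 markers and for the 3 genes unused were 230 and 291 at E12.5, 110 and 244 at P8, and 59 and 52 in the adult. Genes higher than in endothelial cells numbered 755 with a limit of 20 UMIs and 1061 at a 2-fold ratio, and 275 to 310 otherwise. Against epithelial cells they numbered 193 and 171, and 36 to 47 otherwise. Unthinned, the Hox share was 73.75% and the G2M share 91.25%, and the G2M share was 58.75% when thinned to fewer UMIs: shares of cells with a UMI follow depth. Cells with 5 keratin UMIs made up 62.5%, and 37.5% with at least 2 markers, 77.19% with at least 4 and 76.19% at the stricter mitochondrial limit. The cells formed 3, 4 and 3 clusters under the other settings, and 76 of 80 kept theirs without cell-cycle, ribosomal and mitochondrial genes. Of 40 named ratios, 4 left their interval with at least 4 markers and 3 without the 5 cells of most UMIs. The genes were picked for high ratios in these same cells, so the direction of the ratios was not checked by these changes. Prss35 and Tdo2 over epithelial cells had no interval and so could not count as moved. The lower bound for Tdo2 there was 62.52 with all cells and 23.8 without those 5 cells. The cause of these moves was not tested. No paired analysis was possible because the cell comparisons lie within 1 library and no test was run.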

Other observations

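Further gene groups of the 80 cells are given as values. Over all genes tested, 2.79% were higher and 3.52% lower against endothelial cells, and 1.04% and 1.81% against epithelial cells. Basement membrane genes summed to 1074 CPM against 1867 in endothelial cells, with 3 of 15 tested higher and 2 lower. In epithelial cells they summed to 844 CPM, and of 7 tested against that class none was higher and 1 lower. The retinoic acid list summed to 427 CPM in the 80 cells, 245 in endothelial and 1053 in epithelial cells. Of its 9 genes tested against endothelial cells 2 were higher, and of 4 tested against epithelial cells 2 were lower. Within the 80 cells the list summed to 672, 401 and 278 CPM in the Meox1, Postn and Angptl6 clusters. The meninges list summed to 541, 48 and 114 CPM in the same order. It stood at 237 CPM in all 80 cells, 41.2 in endothelial and 250 in epithelial cells. Immediate early and heat shock genes, which respond to dissociation among other stimuli, summed to 320 CPM in the 80 cells, 485 in endothelial and 210 in epithelial cells, and in the cells of the same rule to 1996 CPM at E12.5, 5793 at P8 and 6485 in the adult.

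Keratin-bearing cells with Hand1 also lay outside the rule. Of 57 passing barcodes with Hand1, at least 5 keratin UMIs and none of Cdh5, Pecam1 and Epcam, 39 were among the 80 cells and the other 18 had fewer than 3 of the rule markers.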
